A study of Mus musculus with 24 samples.

Results

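The genes described here are Myc, which encodes the transcription factor MYC, and 42 genes of ribosome biogenesis, the making of ribosomal subunits in the nucleolus. They were chosen by name, with earlier results of these data known, and all 43 were found among the 24421 genes of the count table. RNA came from T cells sorted by CD8 or CD4 from the bone marrow of female CByB6F1 mice, 2 to 5 months old, all with immune-mediated bone marrow failure, where T cells destroy the marrow as in human aplastic anaemia. The mice were untreated or had received CSA (cyclosporine, which blocks calcineurin), RUX (ruxolitinib at low dose, which blocks the kinases JAK1 and JAK2) or both (RUX+CSA), so each cell type had 4 groups. Each group had 3 libraries, each from cells of 2 or 3 mice pooled within a group, with CD8 pools numbered 1 to 12 and CD4 pools 13 to 24. No group of mice without marrow failure was analysed here, so every comparison is between diseased mice, and p-values measure the spread between pools.

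Ribosome production begins when RNA polymerase I transcribes the ribosomal DNA into a long precursor. Small nucleolar ribonucleoproteins (snoRNPs) modify and help cut that precursor, and separate sets of assembly factors then build the small and the large subunit. MYC is a transcription factor that pairs with MAX, binds the E-box CACGTG and raises many genes of this pathway. It is induced when T cells are activated, and growth and division of activated T cells depend on it. The libraries report messenger RNA, so ribosomal RNA and ribosome output were not measured.

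Promoter letters are shown because MYC's own motif is known and 41 of 43 members had a log2 fold change above 0 in CD8 cells given RUX+CSA. Whether that shift has a common source was not tested, and its dependence on single libraries is given further on. RefSeq windows from 250 bases before to 50 bases after a transcription start (GRCm38.p6, the assembly also called mm10) were matched by symbol for 37 of the 43 members. Fbl, Rrs1, Bop1, Rrp12, Npm1 and Myc had none. CACGTG, which reads the same on both strands, stood in the window of 8 of the 37 members (21.6%), of 20.3% of other ribosome biogenesis factors, of 11.4% of genes tested and of 8.09% of all genes with a window. Of the 8 matches, 7 lay after the start. The stretches of 30 bases that hold it are printed 5′ to 3′ in the gene's direction, with the E-box in capitals.
Grwd1, chr7:45830740-45830769 (minus strand): aagggccggagtcgCACGTGtgaaaccgga
Ltv1, chr10:13193092-13193121 (minus strand): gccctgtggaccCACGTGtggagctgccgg
Mybbp1a, chr11:72441347-72441376 (plus strand): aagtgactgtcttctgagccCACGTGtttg
Nop2, chr6:125131811-125131840 (plus strand): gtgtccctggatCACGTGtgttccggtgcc
Pes1, chr11:3963965-3963994 (plus strand): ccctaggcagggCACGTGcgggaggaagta
Tsr1, chr11:74898092-74898121 (plus strand): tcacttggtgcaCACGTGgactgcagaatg
Utp20, chr10:88826765-88826794 (minus strand): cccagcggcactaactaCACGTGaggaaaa
Wdr43, chr17:71616220-71616249 (plus strand): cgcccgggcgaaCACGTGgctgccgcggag
The letters CCGGAAG, a core recognised by ETS family factors, were searched on both strands and were found in 14 of 37 members (37.8%), in 45.6% of other ribosome biogenesis factors, in 19.6% of genes tested and in 9.93% of all genes with a window. The 2 motifs do not overlap in letters. Nop2, a methyltransferase of the large subunit's RNA, held both upstream of its start, the E-box 60 and the ETS core 38 bases before it, and its 250 upstream bases are printed with both in capitals.
Nop2, chr6:125131633-125131882 (plus strand): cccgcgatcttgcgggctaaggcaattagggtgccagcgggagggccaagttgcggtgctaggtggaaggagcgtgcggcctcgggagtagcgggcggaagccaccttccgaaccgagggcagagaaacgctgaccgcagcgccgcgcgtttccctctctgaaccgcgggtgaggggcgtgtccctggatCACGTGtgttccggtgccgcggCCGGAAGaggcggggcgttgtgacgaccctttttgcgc
Of the 8 members that hold the E-box, Nop2 alone rose in CD8 cells given RUX+CSA in the comparison described further on, against 10 of the 29 members with a window and no CACGTG. A match is a stretch of letters, and binding was not measured.

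Levels are in CPM, read pairs per mega read pairs of a library after scaling its total by trimmed mean of M values (TMM). Library totals ran from 16912085 to 34550183 read pairs, and the lowest count of any member in any library was 364 read pairs, so counting noise was small. Together the members took 0.334% to 0.496% of read pairs. The sort labels held, since Cd8a was 730 to 1150 CPM in CD8 and 1.16 to 7.79 CPM in CD4 libraries, and Cd4 was at most 1.16 CPM in CD8 and at least 1180 CPM in CD4 libraries. One library stood apart for the members: CD8 untreated 2 was the lowest of the 12 CD8 libraries for 32 of 43, with a summed member level of 3909 CPM against 4229 to 5086 CPM in the other 11. It also had the fewest read pairs of all libraries, and its 17 neutrophil markers summed to 12.9 CPM. The members' medians for RUX+CSA, CSA and RUX against untreated in CD8 cells, and for CD8 against CD4 without treatment, are given with and without it. Most other values include it, among them those of other gene lists.

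Per kilobase of exon, the most abundant member in CD8 cells of untreated mice was Npm1, a nucleolar histone and RNA chaperone, at 214 CPM per kb. It was followed by the box C/D snoRNP protein Nop56 at 115 and by nucleolin (Ncl), which binds the precursor RNA, at 97.1 CPM per kb. Npm1 has near-identical processed copies in the genome, so its count is uncertain. Myc stood at 62.1 CPM per kb, near the methyltransferase fibrillarin (Fbl) at 64 and the H/ACA snoRNP protein Nhp2 at 65.8. The lowest was the large scaffold Utp20 of the small subunit processome, at 5.33 CPM per kb, followed by the large subunit factor Noc3l at 8.72. The polymerase I subunits Polr1b and Polr1a were also low, at 9.18 and 10.4 CPM per kb. The median member lay at 26.6 CPM per kb in CD8 and 22.8 CPM per kb in CD4 cells of untreated mice. Pools of 1 group varied by a median coefficient of variation of 5.2% to 11% over the 8 groups.

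**Figure D1:**
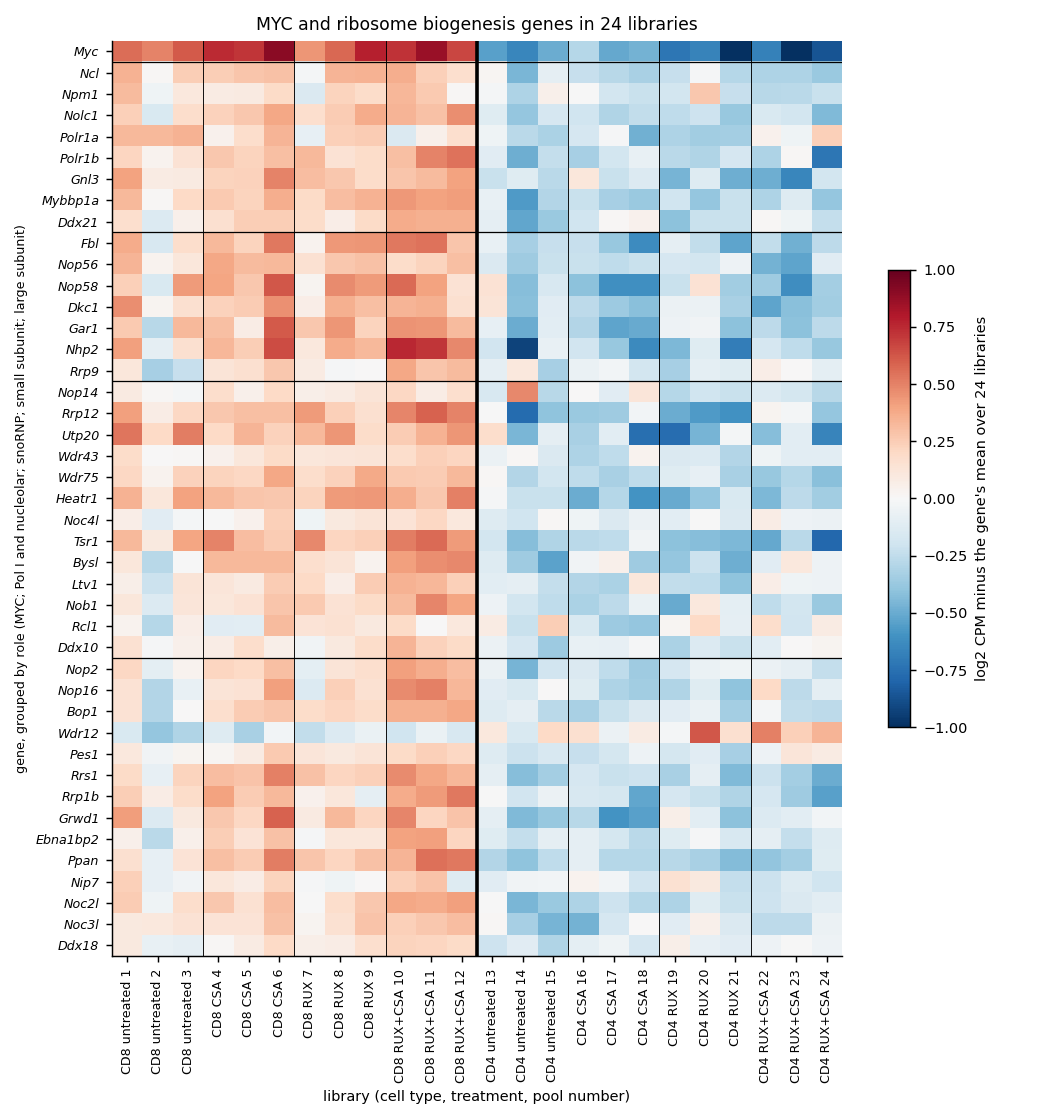
Each row is 1 of the 43 genes, grouped by role, and each column 1 of 24 libraries; colour is the gene's log2 CPM in a library minus its mean over all 24. CD8 libraries (left) lie mostly above and CD4 libraries below each gene's mean, Wdr12 runs the other way, and CD8 untreated 2 is paler than the other CD8 libraries.

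The clearest pattern was the difference between the cell types. Myc was 149, 143 and 155 CPM in the CD8 pools of untreated mice and 69.4, 64.5 and 71.9 CPM in the CD4 pools. With CSA it was 170, 166 and 189 against 83, 71.1 and 73 CPM, and with RUX it was 137, 151 and 173 against 61.4, 63.5 and 43.9 CPM. With RUX+CSA it was 167, 184 and 161 CPM in CD8 and 63.3, 50.6 and 55.5 CPM in CD4 pools. The lowest of the 12 CD8 libraries thus lay above the highest CD4 library. The log2 difference of CD8 over CD4 was 1.12 without treatment (SE 0.12, adjusted p = 1.69e-06, edgeR), 1.21 with CSA, 1.45 with RUX and 1.60 with RUX+CSA (SE 0.12 each, adjusted p = 5.25e-07, 5.82e-08 and 1.14e-08). Each of these 4 calls was kept in all 24 fits that left out 1 library.

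The ribosome biogenesis genes went the same way with smaller differences. In untreated mice, 17 of 43 members were higher in CD8 cells and none was lower at an adjusted p below 0.05, where 7.2% of all genes tested were higher. Single pools decided much of that count: past the threshold were 5 members without CD8 untreated 1, 9 without CD8 untreated 3, 7 without CD4 untreated 14 (6 of them higher) and 10 without CD4 untreated 15. Without CD8 untreated 2 there were 19, all higher, with a median log2 difference of 0.40. In mice given CSA, 33 were higher and none lower (13.6% of all genes higher). In mice given RUX, 27 were higher and 1 lower (8.56% higher, 9.32% lower), and in mice given RUX+CSA, 37 were higher and 1 lower (14.8% higher, 13.0% lower). Median log2 differences of the members were 0.32, 0.49, 0.39 and 0.55 in that order, beside 0.01, -0.01, 0.01 and -0.00 for all genes tested. In all, 14 members were higher in CD8 cells in all 4 treatments, 39 in at least 1, and Nop14, Noc4l, Rcl1 and Wdr12 in none. The 4 comparisons use different libraries on both sides but 1 fit.

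**Figure D2:**
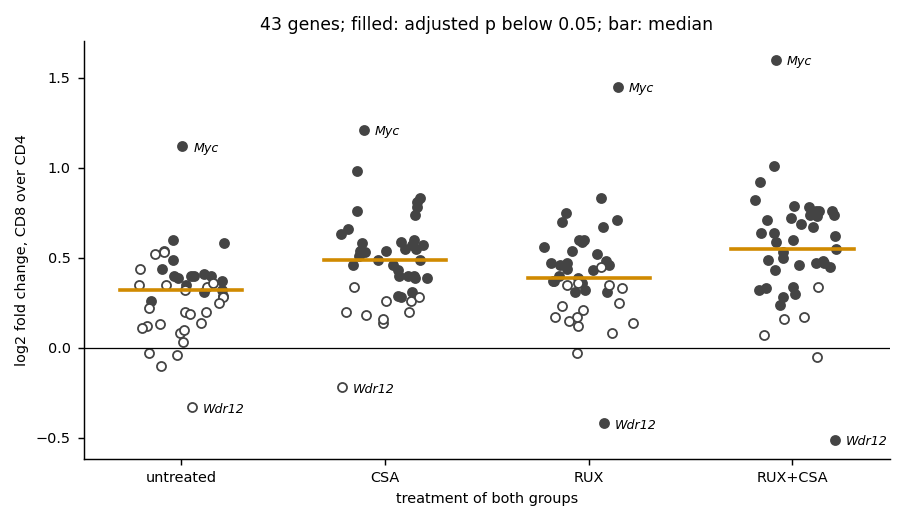
Each point is the log2 fold change of 1 gene in CD8 over CD4 cells (vertical axis) under 1 treatment (horizontal axis); filled points have an adjusted p below 0.05 in edgeR and bars are medians. Myc lies at the top in every treatment, between 1.12 and 1.60, and Wdr12 at the bottom, between -0.51 and -0.22.

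Among the polymerase I and abundant nucleolar proteins, 7 of 8 were higher in CD8 cells without treatment (7.2% of all genes tested), all but Npm1. The calls of Polr1a and Mybbp1a were kept in all 24 fits that left out 1 library. Those of Nolc1, Gnl3 and Ddx21 were each kept in 20 of them, and that of Polr1b in 6. Mybbp1a, a nucleolar MYB-binding protein, was 175, 141 and 161 CPM in CD8 and 133, 94.2 and 114 CPM in CD4 pools of untreated mice, with no overlap (log2 0.49, SE 0.10, adjusted p = 0.0024). Polr1a, the catalytic subunit of RNA polymerase I, was 63.1, 63.2 and 64.4 CPM in CD8 and 49.1, 41.8 and 40.6 CPM in CD4 pools (log2 0.54, SE 0.12, adjusted p = 0.00442). Under RUX+CSA the pools overlapped, and Polr1a was 45.7, 52.4 and 56.8 CPM in CD8 and 52.1, 48.9 and 59.6 CPM in CD4 pools (log2 -0.05, SE 0.12, adjusted p = 0.788). Ncl was higher in CD8 cells in all 4 treatments, from log2 0.37 without treatment (SE 0.12, adjusted p = 0.0294) to 0.59 with RUX+CSA (SE 0.12, adjusted p = 0.000781). Its call without treatment was lost without pool 1, 3 or 14 (highest adjusted p = 0.224), and that with RUX without pool 8, 9, 19 or 21 (highest adjusted p = 0.0835). Npm1 passed the threshold only with RUX+CSA (log2 0.46, SE 0.13, adjusted p = 0.012), a call lost without pool 10 or 11 (highest adjusted p = 0.0616), and whether its difference varies between treatments was not tested.

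Of the 7 snoRNP proteins, 1 was higher in CD8 cells without treatment, 6 with CSA, 5 with RUX and 7 with RUX+CSA. The 1 without treatment was Nop56, at 244, 198 and 209 CPM in CD8 and 175, 151 and 165 CPM in CD4 pools (log2 0.41, SE 0.10, adjusted p = 0.00501). That call was lost without CD8 untreated 1 (adjusted p = 0.0501). Its partner Nop58 was 137, 126 and 160 CPM in CD8 and 78.5, 68.3 and 68 CPM in CD4 pools of mice given CSA (log2 0.98, SE 0.17, adjusted p = 0.000319). Dyskerin (Dkc1), the pseudouridine synthase of the H/ACA class, differed by 0.35 without treatment (adjusted p = 0.0601) and by 0.72 with RUX+CSA (SE 0.13, adjusted p = 0.000305).

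Of the 13 small subunit factors, 5, 9, 9 and 10 were higher in CD8 cells without treatment, with CSA, with RUX and with RUX+CSA. Tsr1, a GTPase-like late assembly factor, had the largest difference after Myc under RUX+CSA, with 60.5, 62.8 and 57.2 CPM in CD8 and 29.8, 35.3 and 24.6 CPM in CD4 pools (log2 1.01, SE 0.12, adjusted p = 4.11e-06). Exons of Srr share 68.5% of the length of Tsr1, and the counting used no strand, so its level is uncertain. Heatr1, a processome protein that also acts in polymerase I transcription, was higher in CD8 cells by 0.44 without treatment (adjusted p = 0.00629) and by 0.74 with CSA, 0.70 with RUX and 0.74 with RUX+CSA (adjusted p = 4.28e-05, 8.86e-05 and 3.54e-05). Rrp12, which acts in export and maturation of both subunits, differed by 0.60 without treatment (SE 0.15, adjusted p = 0.0082) and 0.83 with RUX (SE 0.15, adjusted p = 0.000505), and the first call was lost without pool 1 or 14 (highest adjusted p = 0.0686).

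Of the 14 large subunit factors, 3, 11, 5 and 12 were higher in CD8 cells in the same order of treatments. Ppan, an early assembly factor, was 40.1, 33.9 and 39.4 CPM in CD8 and 29.3, 27.2 and 30.1 CPM in CD4 pools of untreated mice, with no overlap (log2 0.39, SE 0.10, adjusted p = 0.012). That call was lost without pool 1, 3 or 14 (highest adjusted p = 0.0722). Under RUX+CSA its difference was 0.76 (SE 0.10, adjusted p = 1.86e-05). Rrp1b, a nucleolar assembly factor, differed by 0.79 under RUX+CSA (SE 0.10, adjusted p = 1.11e-05) and Rrs1, which brings the 5S particle into the subunit, by 0.74 (SE 0.11, adjusted p = 4.16e-05). Wdr12, which works in 1 complex with Pes1 and Bop1, was lower in CD8 cells: under RUX+CSA it was 34.4, 37.7 and 35.2 CPM in CD8 and 56, 46.5 and 49.9 CPM in CD4 pools (log2 -0.51, SE 0.14, adjusted p = 0.00838). It was also lower with RUX (log2 -0.42, SE 0.14, adjusted p = 0.0342), a call lost without pool 7, 8 or 20 (highest adjusted p = 0.2), and its value was -0.33 without treatment and -0.22 with CSA (adjusted p = 0.0961 and 0.248). The partners Pes1 and Bop1 did not share its direction, with 0.17 (adjusted p = 0.114) and 0.53 (SE 0.10, adjusted p = 0.00042) under RUX+CSA.

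Genes of cell division moved with part of this pattern. Of 20 proliferation genes, none was past the threshold between CD8 and CD4 cells without treatment or with RUX, with 1 and 2 at an unadjusted p below 0.05 (edgeR), while 20 were higher in CD8 cells with CSA and 18 with RUX+CSA. Their median log2 difference was 0.44 without treatment and 0.39 with RUX, with 19 of 20 above 0 in each, beside 0.32 and 0.39 for the members. With CSA and RUX+CSA it was 1.29 and 1.09. The part of proliferation in the members' difference was not tested. Without treatment, 10 of 15 macrophage markers were lower in CD8 than in CD4 libraries, with sums of 434 to 675 CPM in CD8 and 910 to 1850 CPM in CD4 pools. With RUX+CSA their sums overlapped, at 1330 to 1950 CPM in CD8 and 1440 to 1840 CPM in CD4 pools. Neutrophil marker sums were 866 to 3480 CPM in CD8 and 3520 to 17200 CPM in CD4 pools with CSA. With RUX+CSA they were 4410 to 5950 and 8330 to 10400 CPM, and without treatment they overlapped (12.9 to 1490 and 96.9 to 8760 CPM). With the mean of all other-cell markers as a covariate, 21, 28, 29 and 37 members were past the threshold in the 4 treatments in the order above. Since 72.0% of the variance of that mean lay between the groups, these counts do not separate the markers from cell type and treatment. In bulk RNA, a change in the mix of cells and a change in RNA per cell cannot be told apart.

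The next comparison asked whether the drug combination moved the pathway. In CD8 cells with RUX+CSA, 12 of 43 members rose relative to untreated pools and none fell, where 7.94% of all genes tested rose and 15.7% changed either way. An unadjusted p below 0.05 was reached by 22 members, against 33.7% of all genes. The log2 fold change was above 0 in 41 of 43 members, against 47.2% of all genes, and its median was 0.21, against -0.02 over all genes. The sizes were modest, at most 0.49. In 26 members the 3 RUX+CSA pools all lay above the 3 untreated pools (21.7% of all genes), and in Polr1a alone all below.

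The small subunit factor Bysl (chromosome 17, 47599331 to 47611492), which acts in late processing of the precursor, had the smallest p. It was 41.5, 31.7 and 38.2 CPM in the untreated pools against 51, 53 and 53.4 CPM with RUX+CSA, with no overlap (log2 0.49, SE 0.09, adjusted p = 0.00954). Its call was kept in all 12 fits that left out 1 CD8 library, with a highest adjusted p of 0.0356. Exons of Ccnd3, a cyclin gene, share 27.9% of its length. Nob1, the nuclease that makes the final cut of the small subunit's RNA, rose from 41.3, 34.7 and 41.6 CPM without treatment to 47.5, 53.5 and 50.2 CPM in the RUX+CSA pools (log2 0.35, SE 0.09, adjusted p = 0.027). The other 11 small subunit factors did not pass, among them Ltv1 at 0.30 (adjusted p = 0.0529) and Utp20 at -0.08 (adjusted p = 0.607).

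Large subunit factors made up 6 of the 12 rises, of 14 tested. Bop1 (chromosome 15, 76452996 to 76477269) was 102, 75.5 and 92.7 CPM in the untreated pools against 118, 118 and 121 CPM with RUX+CSA, with no overlap (log2 0.39, SE 0.09, adjusted p = 0.0194). Its partner Pes1 was 115, 104 and 109 against 122, 126 and 123 CPM, also without overlap, and did not pass (log2 0.17, SE 0.07, adjusted p = 0.128). Nop16, a nucleolar protein of the large subunit precursor, rose from 33.6, 24.9 and 29 CPM to 42.4, 43.3 and 38.3 CPM, without overlap (log2 0.49, SE 0.13, adjusted p = 0.0288). Ebna1bp2 and Ppan, both early assembly factors, each rose by 0.39 (SE 0.10, adjusted p = 0.0231 and 0.0232), though D4Ertd617e exons share 20.4% of the length of Ebna1bp2. Nop2 rose by 0.30 (SE 0.09, adjusted p = 0.0461) and Rrp1b by 0.26 (SE 0.08, adjusted p = 0.0459), and each call was kept in 3 of 12 fits that left out 1 library.

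The 2 snoRNP proteins and 2 nucleolar members that rose made up the rest. Rrp9, a U3 snoRNP protein, rose from 35.4, 26 and 27.8 CPM to 42.7, 39.7 and 40.7 CPM, without overlap (log2 0.45, SE 0.11, adjusted p = 0.0204). Nhp2, which binds H/ACA snoRNAs, rose from 77.8, 54.8 and 65.4 CPM to 98.8, 96.1 and 81.6 CPM, without overlap (log2 0.47, SE 0.14, adjusted p = 0.0413). The RNA helicase Ddx21, which acts at ribosomal DNA and on snoRNAs, rose by 0.32 (SE 0.08, adjusted p = 0.026), from 160, 130 and 148 to 184, 182 and 182 CPM. Polr1b, the second largest subunit of RNA polymerase I, rose by 0.31 (SE 0.09, adjusted p = 0.0414), while Polr1a went from 63.1, 63.2 and 64.4 down to 45.7, 52.4 and 56.8 CPM and did not pass (log2 -0.31, SE 0.11, adjusted p = 0.0704).

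Myc itself did not pass. It was 149, 143 and 155 CPM in the untreated pools against 167, 184 and 161 CPM with RUX+CSA, without overlap (log2 0.19, SE 0.09, 95% interval 0.00 to 0.37, adjusted p = 0.181). Of the other members always given, Ncl had 0.04 (SE 0.11, adjusted p = 0.819), Npm1 0.07 (SE 0.12, adjusted p = 0.724) and Dkc1 0.05 (SE 0.12, adjusted p = 0.806), with overlapping pools in each. Fbl had 0.30 with a wider error (SE 0.14, adjusted p = 0.164).

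**Figure D3:**
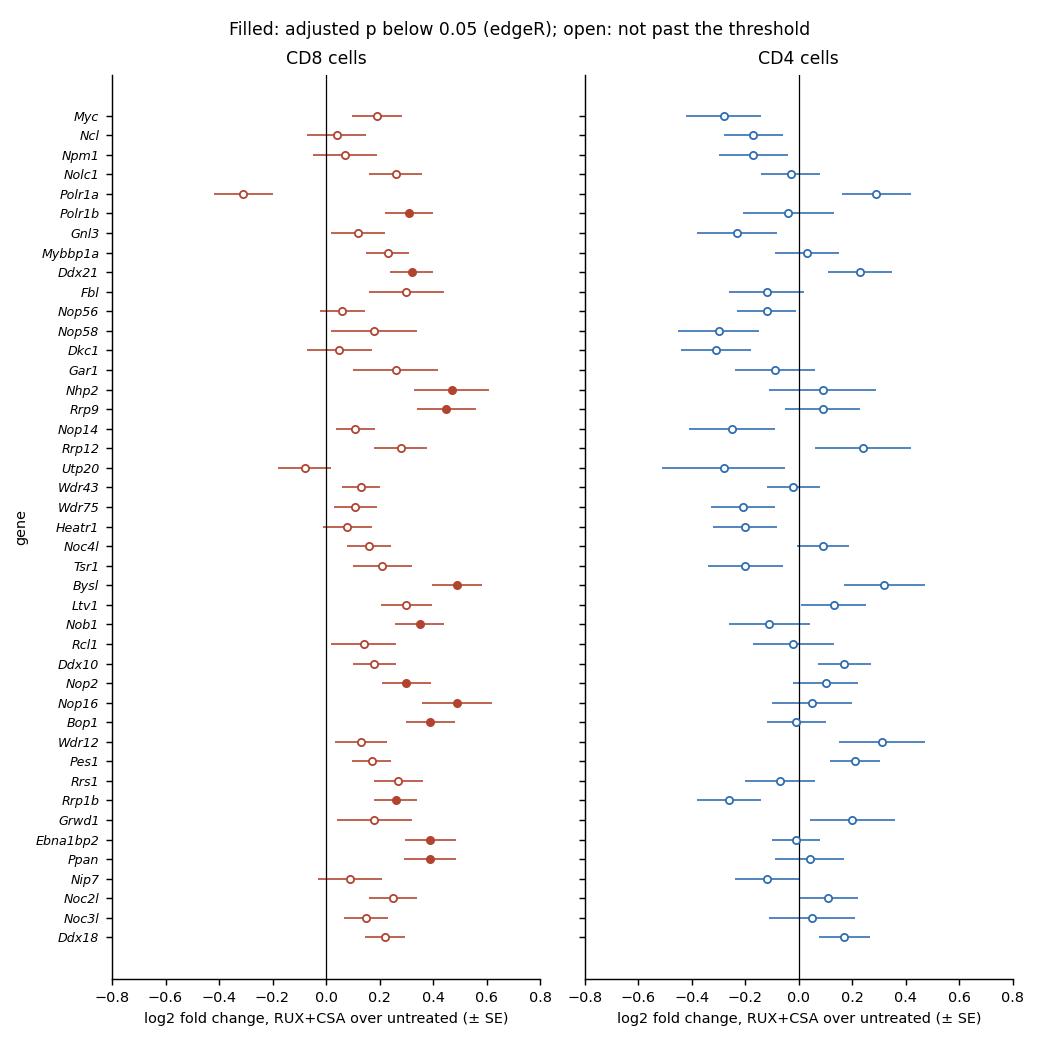
Points are log2 fold changes of RUX+CSA over untreated pools for each of the 43 genes, with bars of 1 SE, in CD8 (left) and CD4 cells (right); filled points have an adjusted p below 0.05 in edgeR. In CD8 cells 12 points are filled and 41 lie above 0, and in CD4 cells none is filled and 19 lie above 0.

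The CD8 count rested on single libraries. Members past the threshold numbered 1 without untreated 2, 5 without untreated 3, 3 without RUX+CSA 10, 1 without RUX+CSA 11, 8 without CSA 4 and 18 without RUX 7 (17 rises and the fall of Polr1a), and 9 to 13 without any other library. The gene left without untreated 2, or without RUX+CSA 11, was Bysl. Without untreated 2 the members' median was 0.14, with 37 of 43 above 0. Markers of other marrow cells moved with the same contrast: rises numbered 5 of 17 for neutrophil, 8 of 11 for tested erythroid, 6 of 9 for B cell and 3 of 4 for tested stem and progenitor markers. Of 15 macrophage markers 1 rose and 4 fell. Summed neutrophil markers ran from 12.9 to 1490 CPM in untreated pools and from 4410 to 5950 CPM with RUX+CSA, and erythroid markers from 8.26 to 41.8 and from 93.5 to 296 CPM, with the globin genes Hba-a1, Hba-a2, Hbb-bs and Hbb-bt at 0 in both groups. B cell markers summed to 5.95 to 13.6 and 29.4 to 83.4 CPM, with Ms4a1, Pax5 and Fcrla at 0 in untreated pools, and stem and progenitor markers to 5.34 to 23.7 and 30.6 to 35.5 CPM, with Mecom at 0 in untreated pools. Macrophage markers summed to 434 to 675 and 1330 to 1950 CPM. With the mean of these markers as a covariate the count of genes past the threshold was 0 in the whole table (edgeR), members included, and the members' median was 0.06, with 27 of 43 above 0. Since 79.0% of the variance of that mean lay between the groups, the markers and the treatment cannot be told apart in these libraries. Of 20 proliferation genes 0 were past the threshold (edgeR, 1 at an unadjusted p below 0.05), and their median was -0.12.

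**Figure D4:**
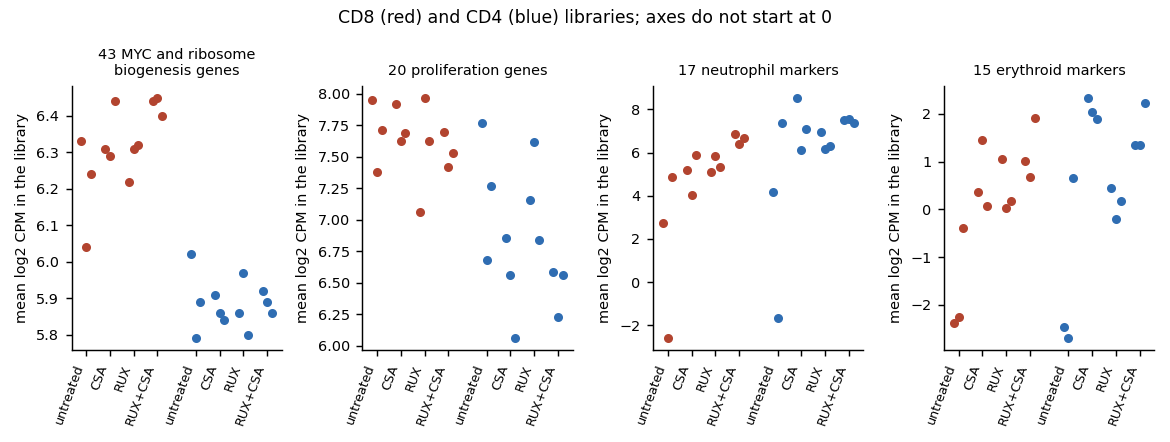
Each point is the mean log2 CPM of a gene list in 1 library, by treatment, for CD8 (red) and CD4 cells (blue); the axes do not start at 0. In CD8 cells the 43 genes run from 6.04 in untreated 2 to 6.45 in RUX+CSA 11, and neutrophil markers from -2.6 to 6.88 in the same direction over these groups.

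Lists of related genes that are not members were counted in the same fit. Of 90 other ribosome biogenesis factors, 10 rose (11.1%, where 7.94% of all genes rose) and 1 fell with RUX+CSA in CD8 cells, with a median of 0.12. Ddx54, an RNA helicase, rose from 122 ± 7.34 to 170 ± 3.56 CPM with the combination (SD, n = 3, log2 0.47, SE 0.07, adjusted p = 0.00377), Nol12 rose by 0.49 (adjusted p = 0.017), and the AAA ATPase Nvl fell by 0.54 (SE 0.13, adjusted p = 0.023). Of 20 other genes of RNA polymerase I machinery, 2 rose and 1 fell, where 15.7% of all genes changed either way. Polr1d and Polr2l, small subunits shared between polymerases, rose by 0.35 and 0.47 (adjusted p = 0.0436 and 0.0472), and Baz2a, a repressor of ribosomal DNA, fell by 0.47 (SE 0.12, adjusted p = 0.0275). Of 44 other MYC targets, 3 rose (6.82%, below the share of all genes) and none fell: the spermidine synthase Srm (log2 0.59), the translation repressor Eif4ebp1 (0.87) and the amino acid transporter chain Slc3a2 (0.32), with adjusted p = 0.0296, 0.00988 and 0.0381.

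In the MYC network, 2 of 15 tested genes rose and 3 fell in the same contrast, where 7.94% of all genes rose and 15.7% changed either way. Max, the obligate partner of MYC, averaged 127 ± 23.9 CPM in untreated CD8 pools and 129 ± 14.6 CPM with RUX+CSA (SD, n = 3, log2 0.01, SE 0.14, adjusted p = 0.957). Mxd1, a MAX partner that represses E-box genes, rose from 68.7 ± 10.9 CPM to 158 ± 11.4 CPM with the combination (log2 1.19, SE 0.15, adjusted p = 0.00327), in the pools where the neutrophil markers above were also higher. Mlx, the MAX-like partner, rose by 0.41 and its partner Mlxip fell by 0.84 (adjusted p = 0.00954 and 0.00569), and Mga, a MAX-binding repressor, fell by 0.56 (adjusted p = 0.0214). Mnt, another repressor, had -0.22 (adjusted p = 0.193). Mycn was barely expressed, at 1.1 ± 0.322 CPM in untreated CD8 pools and 0.184 ± 0.0493 CPM with RUX+CSA (log2 -2.58, SE 1.0, adjusted p = 0.11).

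The single drugs gave no call in CD8 cells. With CSA none of 43 members passed, as none of the 12684 genes did (0.0%), and 9 members had an unadjusted p below 0.05, against 9.72% of all genes (edgeR; DESeq2 and limma voom also called 0 members). Their median log2 was 0.12, with 39 of 43 above 0 (51.1% of all genes), and without untreated 2 it was 0.07, with 35 above 0. The 9 were Bysl, Rrp9, Bop1, Ppan, Ebna1bp2, Rrs1, Myc, Nop16 and Ddx21, from 0.37 for Bysl (SE 0.09, adjusted p = 0.411) to 0.18 for Ddx21 (adjusted p = 0.505). With RUX none passed (0.0% of all genes) and Bop1 alone had an unadjusted p below 0.05, against 5.87% of all genes (log2 0.23, adjusted p = 0.784). The members' median was 0.08, with 38 above 0 (50.7% of all genes), and DESeq2 and limma voom also called 0. Without untreated 2 that median was 0.02, with 27 above 0. With the other-cell marker covariate the members' median was 0.04 for CSA, with 27 above 0, and -0.05 for RUX, with 14 above 0. The comparisons of the single drugs and of RUX+CSA with untreated share the 3 untreated pools, untreated 2 included. Group means of the members, with untreated 2 included, were lowest in untreated CD8 cells for 38 of 43 and highest with RUX+CSA for 34. For 30 members both single-drug means lay between. This order was not counted over all genes or without untreated 2, so it is not shown to be particular to the members.

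RUX+CSA against the single drugs left few differences. Against CSA none of the members passed (0.0788% of all genes), with 2 at an unadjusted p below 0.05, Nob1 and Rrp12, against 12.6% of all genes. Against RUX none passed in edgeR (0.0% of all genes) and 11 had an unadjusted p below 0.05, against 17.3% of all genes. Rrp1b came nearest, at 74.2, 78.1 and 67.7 CPM with RUX and 93.2, 96.9 and 104 CPM with RUX+CSA, without overlap (log2 0.41, SE 0.08, adjusted p = 0.0631). DESeq2 called 2 members there. RUX against CSA and the RUX by CSA interaction had no member past the threshold (0.0% of all genes in each, edgeR, and 0 members in DESeq2). At an unadjusted p below 0.05 there were 2 and 1 members, against 1.81% and 2.9% of all genes.

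**Figure D5:**
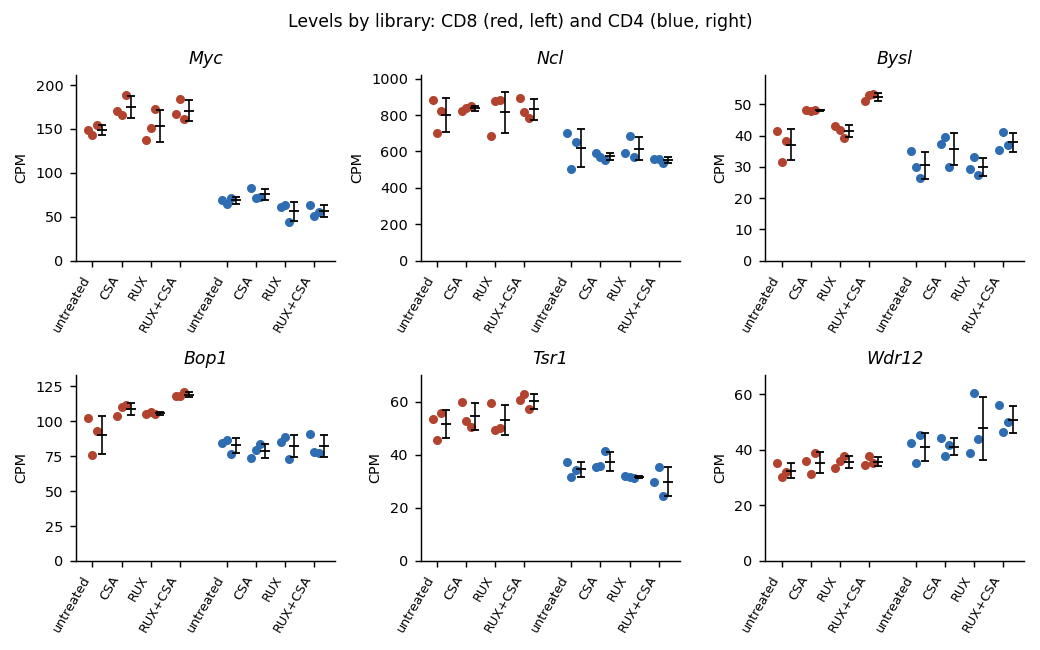
Points are CPM of 6 genes in each library, CD8 in red and CD4 in blue, by treatment, with the mean and SD of 3 pools beside them. Bysl and Bop1 are highest with RUX+CSA in CD8 cells, Myc, Ncl and Tsr1 lie higher in CD8 than CD4 cells, and Wdr12 lies lower.

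In CD4 cells no member passed with RUX+CSA against untreated (1.77% of all genes; edgeR, DESeq2 and limma voom each called 0 members), and 3 had an unadjusted p below 0.05, against 16.9% of all genes. Their median log2 was -0.02, with 19 of 43 above 0 (49.0% of all genes), and without untreated 13 it was 0.02, with 25 above 0. Myc was 69.4, 64.5 and 71.9 CPM in the untreated pools against 63.3, 50.6 and 55.5 CPM with RUX+CSA, all below the untreated pools (log2 -0.28, SE 0.14, 95% interval -0.55 to -0.01, adjusted p = 0.317). Dkc1 had -0.31 (SE 0.13, adjusted p = 0.222), Pes1 0.21 (SE 0.09, adjusted p = 0.254) and Polr1a 0.29 (SE 0.13, adjusted p = 0.292). Ncl and Npm1 each had -0.17 (adjusted p = 0.497 and 0.551), Fbl -0.12 (adjusted p = 0.718), Polr1b -0.04 (adjusted p = 0.944) and Bop1 -0.01 (adjusted p = 0.975). Bysl was 35, 29.9 and 26.5 CPM in the untreated pools against 35.4, 41.3 and 37.1 CPM with RUX+CSA, without overlap, and did not pass. All 20 proliferation genes had values below 0 in this contrast (median -0.83), 15 with an unadjusted p below 0.05 and 0 past the threshold. CD4 pools varied more than CD8 pools, with a biological coefficient of variation of 0.279 against 0.196.

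The other CD4 comparisons also had no member past the threshold in edgeR, DESeq2 or limma voom. Unadjusted p-values below 0.05 numbered 4 with CSA against untreated (16.2% of all genes, with 1.48% past the threshold) and 0 with RUX against untreated (4.16%, with 0.0% past). They numbered 7 with RUX+CSA against CSA (9.98%, with 0.281% past), 7 against RUX (14.3%, with 0.782% past), 3 for RUX against CSA (16.4%, with 2.52% past) and 1 for the interaction (4.77%, with 0.0% past). Myc had the smallest p against CSA, with log2 -0.42 for RUX+CSA (SE 0.14, adjusted p = 0.287) and -0.43 for RUX (SE 0.14, adjusted p = 0.137), so its CD4 mean was highest with CSA, at 75.7 ± 6.37 CPM (SD, n = 3).

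The effect of RUX+CSA was then compared between the cell types. The difference of the log2 effects, CD8 minus CD4, was above 0 for 39 of 43 members (53.1% of all genes) with a median of 0.25, against 0.03 over all genes, but no member passed in edgeR, where 3 genes of 13476 did (0.0223%). DESeq2 also called 0 members, and 14 members had an unadjusted p below 0.05, against 14.1% of all genes. The smallest p belonged to Rrp1b (0.53, SE 0.14, 95% interval 0.25 to 0.82, adjusted p = 0.138) and Polr1a, which ran the other way (-0.59, SE 0.17, 95% interval -0.93 to -0.25, adjusted p = 0.167). Myc had 0.48 (SE 0.17, 95% interval 0.15 to 0.81, adjusted p = 0.244) and Bop1 0.41 (SE 0.14, adjusted p = 0.212). No member's response was thus shown to differ between CD8 and CD4 cells with 3 pools a group. Of the 12 members that rose in CD8 cells, 3 were among the 17 of 43 that were higher in CD8 than CD4 cells without treatment. That is 25% of the first and 17.6% of the second. Both calls use the untreated CD8 pools, on opposite sides, which favours a small overlap. All 12 were among the 37 of 43 members higher in CD8 cells under RUX+CSA. Those 2 calls share the RUX+CSA CD8 pools on the high side, which favours a large overlap, so nothing is concluded from either.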

How the data were processed

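Messenger RNA of 24 libraries (8 groups of 3 pools) was sequenced with a SMART-Seq mRNA kit, per the labels' protocols. The deposited values are raw counts of read pairs per gene, made by the authors with featureCounts 2.0.3 on exons of a UCSC mm10 annotation joined per gene, with no strand option and no option to count multiply mapped pairs, per the file headers. The aligner was STAR with mm10 as genome, per the submitters' processing notes. The STAR version is not given in the sources used here. Gene lengths and spans (columns of the same table, scored as other) are those deposited by the authors.

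From the counts, edgeR 4.0.16 (R 4.3.3) gave TMM factors (0.929 to 1.05), filterByExpr removed low counts, and robust quasi-likelihood F tests were run on group means: 12 libraries per cell type (12684 genes in CD8, 13175 in CD4) and all 24 across types (13476). All 43 members passed the filter in each fit. P-values are two-sided, adjusted by Benjamini-Hochberg over all genes tested, with a threshold of 0.05. SEs are taken from the F statistic and 95% intervals are 1.96 SE. The 19 comparisons are, per cell type, the 6 pairs of treatments and their interaction, then CD8 against CD4 under each treatment, and whether the effect of RUX+CSA differs by cell type. Pool numbers are shared by no groups, so nothing was paired. Overlap counts use CPM.

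The members and lists were chosen with earlier results of these data known. Named were all members past the threshold where 12 or fewer, otherwise examples from the 12 with the smallest p, with Myc, Ncl, Npm1, Fbl, Dkc1, Polr1a, Polr1b, Bop1 and Pes1 always given for RUX+CSA against untreated, and up to 3 called genes of other lists. Any other member may be named by the rule, and those given beyond these were picked after their values were seen. Alternatives were DESeq2 1.42.0 size factors, no filter, DESeq2, limma voom (3.58.1), all libraries in 1 fit, an other-cell marker covariate, CSA 6 and RUX 7 left out, and each library left out in turn. The code of the fits was tried on simulated counts. Every change put in there was larger than any member's rise with RUX+CSA in CD8 cells. The trial therefore does not show how well changes of the members' size are found. Promoter sequences are from RefSeq.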

Additional observations from a re-analysis of the deposited data

How the results depend on the processing

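No paired analysis was run because the pools are numbered 1 to 24 and no 2 groups share a number. The numbers do not say whether CD8 and CD4 pools came from the same mice, so a pairing between cell types may have gone unused. The 12 members past the threshold with RUX+CSA in CD8 cells became 0 with the other-cell marker covariate, 7 with all 24 libraries in the fit and 19 without CSA 6 and RUX 7, of which 18 rose and Polr1a fell (log2 -0.31, adjusted p = 0.0194). Leaving out each library in turn gave 1 to 18 for that count (17 rises and 1 fall at most), 5 to 22 for the 17 members between CD8 and CD4 cells without treatment, and 0 to 1 for RUX+CSA against RUX in CD8 cells. RUX+CSA against RUX in CD8 cells gave 2 with DESeq2 and 3 without CSA 6 and RUX 7. The cause of these shifts was not tested. Ranges were 24 to 36 with CSA, 20 to 29 with RUX and 29 to 39 with RUX+CSA for CD8 against CD4. For RUX+CSA against untreated, the covariate turned the sign of 14 of 43 members in CD8 cells. Among those always named, these were Ncl (-0.179), Npm1 (-0.0789), Fbl (-0.0397) and Dkc1 (-0.0862). In CD4 cells it turned the sign of 10, among them Bop1 (0.119), and none of those 5 was past the threshold in either fit. In the same comparison, leaving out 1 library turned the sign for 4 members in CD8 cells. Among them were Ncl (-0.0456 to 0.119), Npm1 (-0.011 to 0.169) and Dkc1 (-0.0414 to 0.181). It did so for 15 in CD4 cells, among them Polr1b (-0.237 to 0.128) and Bop1 (-0.0968 to 0.0312). For CSA and RUX against untreated in CD8 cells, leaving out 1 library turned the sign for 7 and 16 members. The covariate did so for 12 and 24. The 2 scalings, TMM and DESeq2 size factors, moved no median of all genes by over 0.1. The lowest count of a member in any library was 364 read pairs.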
